A study of Mus musculus with 16 samples.

Results

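Cd34 and 7 markers of portal and adventitial fibroblasts were followed in 16 mouse liver arrays: Thy1, Entpd2, Dpt, Pi16, Clec3b, Htra1 and Htra3. The 8 genes were taken from a list, each with the row of the array table that carries its symbol alone. Where a gene has several such rows the one with the highest mean over all arrays was to stand for it, but all 8 genes had 1 row, so no row was chosen by its level. They are 8 of 19938 genes measured in this way. Cd34 and Htra1 were already known, when the list was drawn up, to lie among the largest rises of the series, so their values are given as a description with no test.

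The arrays were Affymetrix Mouse Gene 1.0 ST, and each held total RNA of liver. The transgenic group (7 arrays) came from mice with genotype Pdgf-c transgenic and the wildtype group (9 arrays) from wildtype mice, both of strain C57BL/6. The labels name the cell type as stromal cells, whereas the extraction protocol describes hepatic RNA, and the hepatocyte gene Alb stood at 13.50 to 13.60 in the transgenic and 13.48 to 13.74 in the wildtype arrays, so the samples are treated as whole liver. The labels give no age, no promoter or species of the transgene, and no statement that arrays came from separate mice, so the tests reflect the spread among these arrays, which may be technical. Pdgfc itself, the gene of the transgene, stood at 6.13, 6.53 and 6.63 (lowest, median and highest) in transgenic and at 5.76, 6.00 and 6.19 in wildtype arrays, and 6 of 7 transgenic arrays exceeded every wildtype array. Levels are log2 intensities after GCRMA, which subtracts a background estimated from the bases of each probe, and differences are transgenic minus wildtype on that scale with the standard error of the limma fit. A gene is said to have risen or fallen when its limma adjusted p was under 0.05 (Benjamini-Hochberg over all 35557 rows).

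Portal fibroblasts are the resident fibroblasts of the connective tissue around the bile ducts and vessels of the portal tract, and fibroblasts of similar expression line the adventitia of larger vessels in many organs. They are distinct from hepatic stellate cells, the vitamin A storing pericytes of the sinusoids, and both can become the matrix-producing myofibroblasts of a fibrotic liver. CD34 is a sialomucin found on these fibroblasts, but also on capillary endothelium, mast cells and blood progenitors, and the protocols of this series include a CD34 antibody for tissue staining. PDGF-C activates PDGF receptor alpha, which fibroblasts and stellate cells carry.

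The groups did not overlap in 4 of the markers and overlapped in the other 4. Cd34 and Htra1 were more than 8-fold higher in transgenic livers, Dpt was 2.95-fold higher and Htra3 1.42-fold higher, and in these genes every transgenic array lay above every wildtype array. Thy1, Entpd2, Pi16 and Clec3b, which are used as markers of the same cells, lay between -0.08 and 0.23 and their groups overlapped. The median difference of the 8 genes was 0.37, beside -0.04 over all genes. By the limma threshold, which for Cd34 and Htra1 is only counted and read as no test, 4 markers were called higher, beside a background of 12.1% of all genes, and the 4 without overlap stand beside 5.43% of all genes. Nothing about the markers as a group is read from these shares, because 2 of the 4 were known as large rises beforehand. In whole-tissue RNA, more cells of a type and more RNA per cell cannot be told apart.

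**Figure D1:**
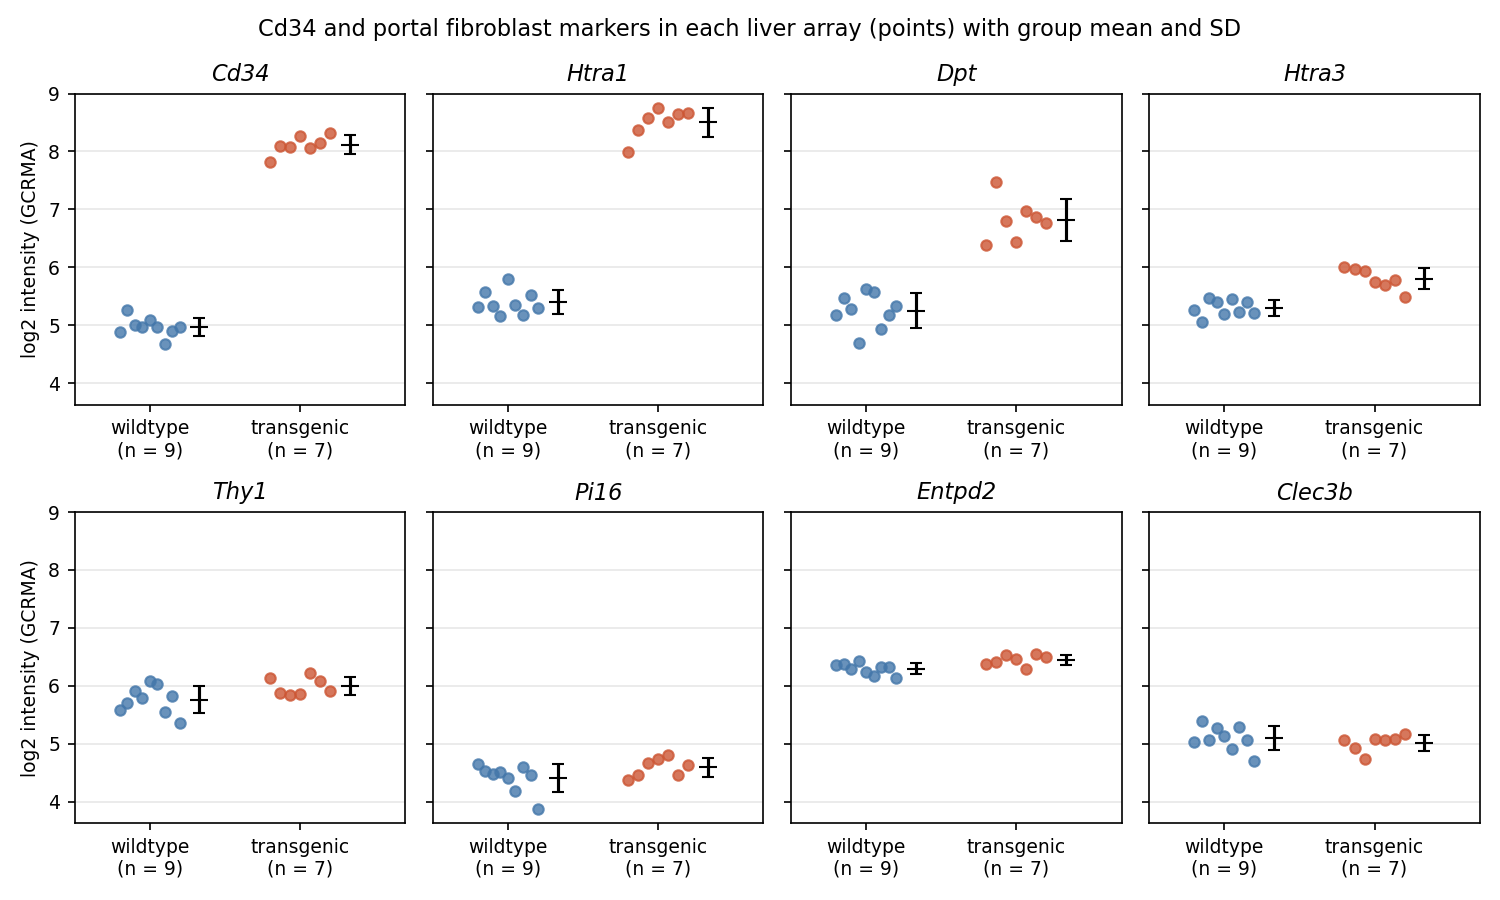
Log2 intensity of each of the 8 genes (panels) in the 9 wildtype (blue) and 7 transgenic (orange) liver arrays, in the order of their replicate numbers, with the group mean and SD beside them. The arrays of the groups are fully apart in the upper row, from Cd34 at 4.68 to 5.27 against 7.82 to 8.33 down to Htra3 at 5.05 to 5.46 against 5.49 to 6.01, and overlap for each gene of the lower row.

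Cd34 stood at 7.82, 8.10 and 8.33 (lowest, median and highest) in the transgenic arrays and at 4.68, 4.97 and 5.27 in the wildtype arrays. The lowest transgenic array, number 1, was thus still above the highest wildtype array, number 2, by far more than the spread within either group (SD 0.164, n = 7, and 0.157, n = 9). The difference was 3.14 ± 0.0803 (SE), an 8.83-fold higher intensity with a 95% interval of 7.86 to 9.93. It ranked 8 among the rises of 19938 genes. In 8 of 9 wildtype arrays Cd34 lay below the median row of the table (5.25), where intensities are closer to background and a fold is read with less certainty, and in 0 of 7 transgenic arrays. The same was so in 2 wildtype arrays for Htra1 and in 4 each for Dpt and Htra3.

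Htra1 encodes a secreted serine protease that cleaves matrix proteins and proteoglycans and binds TGF-beta family ligands. It stood at 7.995, 8.59 and 8.76 in transgenic arrays and at 5.16, 5.34 and 5.80 in wildtype arrays. Its difference of 3.11 ± 0.108, or 8.61-fold (95% interval 7.35 to 10.1), ranked 9, next below Cd34, and the intervals of both genes overlapped. Htra3 encodes a related secreted protease. It stood at 5.49, 5.78 and 6.01 in transgenic and at 5.05, 5.27 and 5.46 in wildtype arrays, so the lowest transgenic array, number 7, was only just above the highest wildtype array, number 3. The difference was 0.51 ± 0.0818, 1.42-fold with a 95% interval of 1.26 to 1.60 (limma adjusted p = 0.000185, higher in 7 of 7 transgenic arrays).

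Dpt encodes dermatopontin, a small matrix protein that binds decorin and collagen fibrils and marks fibroblasts shared by many organs. It stood at 6.39, 6.79 and 7.46 in transgenic and at 4.69, 5.28 and 5.63 in wildtype arrays, with transgenic array 2 the highest and wildtype array 4 the lowest. The groups did not overlap, and the SD of 0.359 (n = 7) and 0.303 (n = 9) was the widest of the 8 genes in both groups. The difference was 1.56 ± 0.152, 2.95-fold with a 95% interval of 2.36 to 3.69 (limma adjusted p = 6.52e-07, higher in 7 of 7).

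The promoters of the 4 genes whose groups did not overlap are shown because all 4 were higher in transgenic livers while their start regions differ in composition. Each window holds 250 bases before to 50 bases after a RefSeq transcript start in GRCm38.p6, 5′ to 3′ on the gene's strand, at chr1:194938571-194938870 (+) for Cd34, chr7:130935953-130936252 (+) for Htra1, chr1:164796413-164796712 (+) for Dpt and chr5:35679731-35680030 (-) for Htra3. Capitals mark matches on either strand to 8 motifs. They were TATAAA for the TATA-binding protein, TGANTCA for AP-1, GGGCGG for SP1, CCAAT for NF-Y, GGAATG for TEAD factors, TTCNNNGAA for STAT factors, CAGCTG for E-box factors, and the CArG box of SRF.
Cd34: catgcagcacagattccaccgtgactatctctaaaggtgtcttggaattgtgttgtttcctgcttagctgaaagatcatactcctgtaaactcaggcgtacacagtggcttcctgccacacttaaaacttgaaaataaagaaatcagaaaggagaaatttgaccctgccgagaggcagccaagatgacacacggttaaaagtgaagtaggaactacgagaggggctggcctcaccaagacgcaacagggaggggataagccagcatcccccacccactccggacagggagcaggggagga
Htra1: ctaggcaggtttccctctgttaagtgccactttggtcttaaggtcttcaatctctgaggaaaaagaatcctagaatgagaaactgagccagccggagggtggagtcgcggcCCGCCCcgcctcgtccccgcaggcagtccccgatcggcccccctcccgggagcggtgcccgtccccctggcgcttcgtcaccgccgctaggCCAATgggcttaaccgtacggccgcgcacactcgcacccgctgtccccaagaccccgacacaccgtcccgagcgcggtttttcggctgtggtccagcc
Dpt: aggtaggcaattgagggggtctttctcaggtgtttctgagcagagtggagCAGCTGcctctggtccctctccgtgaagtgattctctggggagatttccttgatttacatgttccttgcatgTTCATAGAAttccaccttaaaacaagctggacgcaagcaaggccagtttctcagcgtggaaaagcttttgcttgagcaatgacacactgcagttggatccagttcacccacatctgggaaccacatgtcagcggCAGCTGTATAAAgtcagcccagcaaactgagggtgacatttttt
Htra3: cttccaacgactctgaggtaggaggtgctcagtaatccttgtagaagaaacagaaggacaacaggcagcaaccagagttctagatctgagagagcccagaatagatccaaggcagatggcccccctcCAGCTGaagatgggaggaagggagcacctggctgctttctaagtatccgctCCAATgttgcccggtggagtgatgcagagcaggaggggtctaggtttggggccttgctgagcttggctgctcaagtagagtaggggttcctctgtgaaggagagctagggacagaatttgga

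No motif of the 8 occurred in all 4 windows, and the Cd34 window held none of them. The Htra1 window was 65.0% G or C with 28 CpG dinucleotides and held an SP1 and an NF-Y motif, which 35.7% and 37.4% of 32851 promoter windows also hold. The Dpt window had 48.7% G or C and 4 CpG dinucleotides, with 2 E-boxes, a STAT motif and a TATA motif. The shares over all windows were 16.3%, 8.30% and 13.6%. The TATA motif directly follows the second E-box, so that both share a run of capitals. The second E-box and the TATA motif begin 7 and 13 bases after the annotated start, so this TATA motif is not upstream of it. The Htra3 window had 53.7% G or C and 3 CpG dinucleotides with an E-box and an NF-Y motif, and the Cd34 window had 7 CpG dinucleotides, where the median window had 52.7% and 7. A match describes letters only, and these values say nothing of binding.

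The 4 markers that did not pass the test are surface and secreted labels of portal and adventitial fibroblasts. Thy1 encodes THY-1 (CD90), a glycosylphosphatidylinositol-anchored protein of fibroblasts, T cells and neurons. It stood at 5.84, 5.91 and 6.23 in transgenic and at 5.37, 5.80 and 6.09 in wildtype arrays, and 2 of 7 transgenic arrays exceeded all wildtype arrays. The difference was 0.23 ± 0.1 (limma adjusted p = 0.13), with an interval that reached from 1.01-fold to 1.36-fold.

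Entpd2 encodes NTPDase2, the ATP-splitting surface enzyme by which portal fibroblasts are often told from stellate cells. It stood at 6.29, 6.46 and 6.54 in transgenic and at 6.13, 6.32 and 6.43 in wildtype arrays, with 4 of 7 transgenic arrays above all wildtype arrays. The difference was 0.15 ± 0.0557, 1.11-fold with a 95% interval of 1.02 to 1.21 (limma adjusted p = 0.0656, and 0.0342 to 0.417 over all alternatives tried). It passed the threshold with a floor under dim values (adjusted p = 0.0381), on rows above the median row alone (0.0417), without transgenic array 5 (0.0342) and without wildtype array 4 (0.0450), and its difference was 0.07 after quantile normalization.

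Pi16, a peptidase-inhibitor gene that marks adventitial fibroblasts in many tissues, stood at 4.37, 4.64 and 4.81 in transgenic and at 3.87, 4.48 and 4.66 in wildtype arrays. The groups overlapped, and the difference was 0.18 ± 0.105 (limma adjusted p = 0.277), with an upper interval bound of 1.32-fold. Clec3b encodes tetranectin, a secreted plasminogen-binding lectin, and was the one marker with a lower transgenic mean. It stood at 4.74, 5.06 and 5.17 in transgenic and at 4.71, 5.06 and 5.40 in wildtype arrays, a difference of -0.08 ± 0.0924 (limma adjusted p = 0.634), and no transgenic array lay outside the wildtype range. The interval reached from 0.828 to 1.08 of the wildtype intensity. Both rows lay below the median row of the table (5.25) in their mean over all arrays, at 4.49 and 5.06, so the same limit holds for their folds.

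The wider gene list of portal and adventitial fibroblasts also divided. Of 25 further genes 23 had a row (Ly6a and Ly6c1 had none with a single symbol), 12 rose and 2 fell, and the median difference was 0.51. Of all genes 12.1% rose and 11.1% fell. The largest rises were Gsn, the actin-severing protein gelsolin, at 2.81 ± 0.0871 (7.01-fold), Gpx3, a secreted glutathione peroxidase, at 2.03 ± 0.105 (4.09-fold), and Gas6, a ligand of TAM receptors, at 1.97 ± 0.0802 (3.91-fold). The elastic fibre genes Mfap4, Fbln2 and Eln rose by less, at 1.23 ± 0.0861, 0.72 ± 0.0837 and 0.67 ± 0.0692. The limma adjusted p was at most 5.30e-06 for each of the genes just named. In all 12 genes that rose, the transgenic arrays lay wholly above the wildtype arrays, where 5.43% of all genes did.

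Among the same 23 genes, 9 did not pass the test. Gli1, the Hedgehog-responsive factor of perivascular mesenchymal cells, differed by -0.13 ± 0.0677 (limma adjusted p = 0.217), though it was called lower after quantile normalization or centring, and Col15a1, a basement-membrane collagen of portal fibroblasts, by 0.20 ± 0.0837 (limma adjusted p = 0.104), called higher without wildtype array 8. Mfap5, a microfibril gene of adventitial fibroblasts, stood at -0.25 ± 0.0873 (limma adjusted p = 0.0531) and was called lower in 10 of the alternatives. Cd55, a complement regulator, fell 2.19-fold (-1.13 ± 0.125, limma adjusted p = 2.86e-06), with every transgenic array below every wildtype array. Ccl11, the chemokine eotaxin, was called lower at -0.27 ± 0.0847 (limma adjusted p = 0.0317), a call lost with the replicate block and without transgenic array 4, 5, 6 or 7 or wildtype array 7. Cd55, Ccl11 and Mfap5 had means of 4.84, 4.50 and 3.98 over all arrays. These lie below the median row (5.25), so the limit given for dim rows holds for their differences too.

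**Figure D2:**
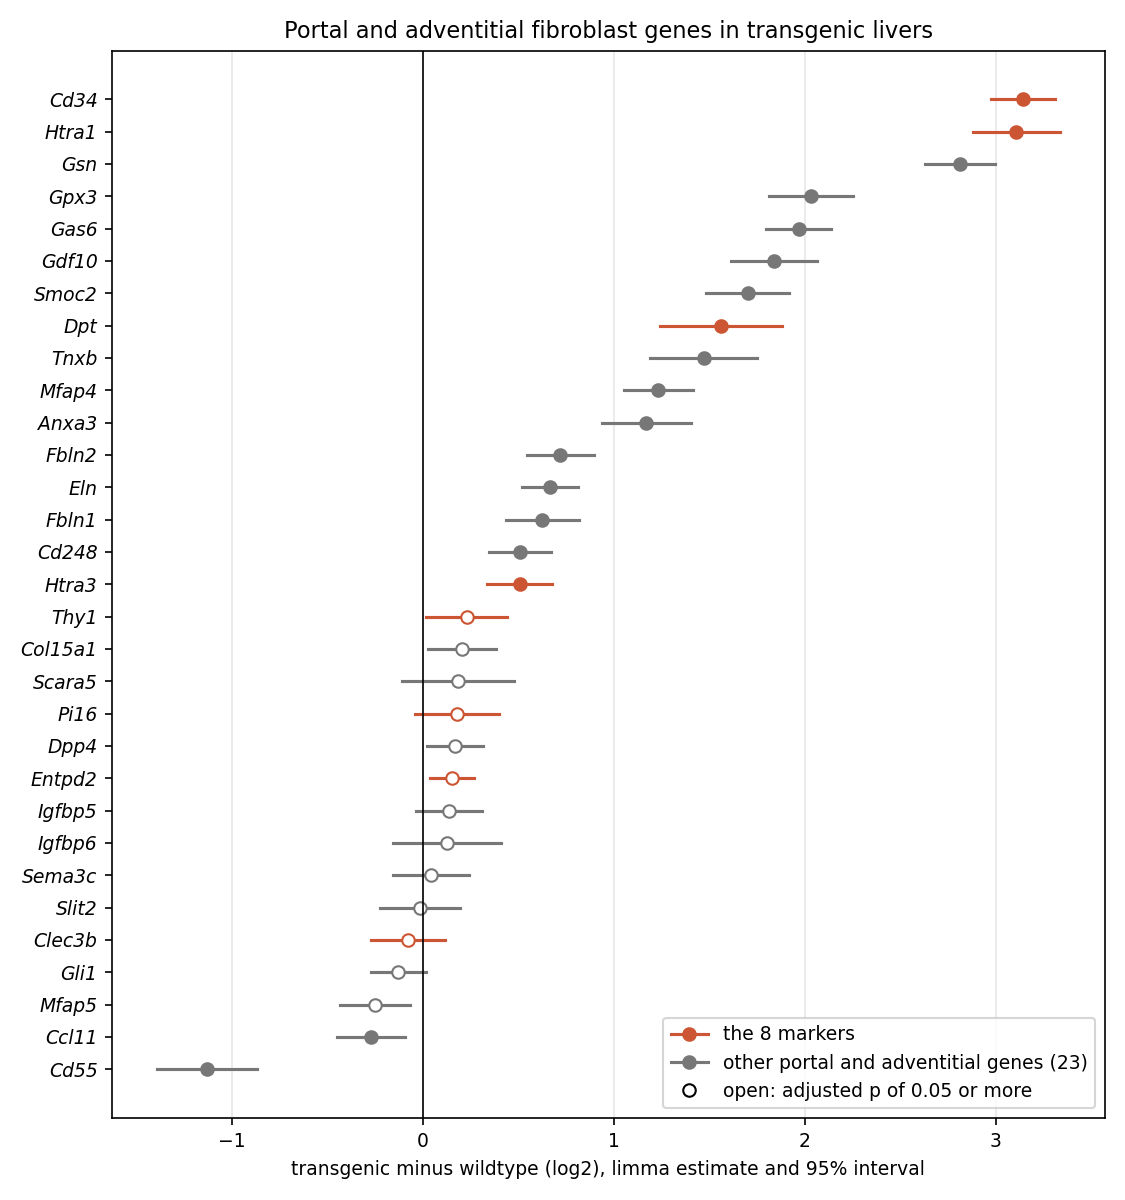
Difference between transgenic and wildtype arrays (log2, horizontal axis) with its 95% interval for the 8 markers (orange) and the 23 other portal and adventitial genes with a row (grey), ordered by size, with open circles where the adjusted p was 0.05 or more. Cd34 and Htra1 stand at the top at 3.14 and 3.11, Gsn follows at 2.81, and Thy1, Pi16, Entpd2 and Clec3b lie within 0.23 of zero, while Cd55 is lowest at -1.13.

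Paralogues of the markers were read next, since the markers belong to small families whose other members differ in where they are expressed. In the HTRA family the mitochondrial protease gene Htra2 differed by -0.02 ± 0.0623 (limma adjusted p = 0.881), and Htra4 was called lower at -0.31 ± 0.104 (limma adjusted p = 0.0471), a call that was lost in 17 of 27 alternatives. Neither was higher in transgenic livers, unlike Htra1 and Htra3. In the CD34 family Podxl, which encodes podocalyxin of endothelium and podocytes, stood at 0.19 ± 0.0982 and Podxl2, endoglycan, at 0.18 ± 0.0905 (limma adjusted p-values 0.222 and 0.194). Podxl was called higher without transgenic array 1 (0.26, limma adjusted p = 0.0298) and without transgenic array 1 and wildtype array 9 together (0.30, limma adjusted p = 0.012).

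Among 8 genes of the ENTPD family 1 rose and 3 fell, beside 12.1% and 11.1% of all genes, so the count of rises is that of the background. Entpd1 encodes CD39, the enzyme of endothelium and leukocytes that splits ATP and ADP, and rose 1.97-fold (0.98 ± 0.13, limma adjusted p = 2.56e-05), with 6 of 7 transgenic arrays above all wildtype arrays. Entpd8, the NTPDase of bile canaliculi, fell 1.29-fold (-0.37 ± 0.0509, limma adjusted p = 3.47e-05), and Entpd5 fell 1.30-fold (-0.37 ± 0.0869, limma adjusted p = 0.00453). Entpd6 was called lower at -0.17 ± 0.0586, a call lost in 14 of 27 alternatives.

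Genes of purinergic signalling, receptors and enzymes that read or turn over extracellular nucleotides, rose in 7 of 13 measured cases and fell in 1, beside 12.1% and 11.1% of all genes. Of the 8 with rows above the median row, 4 rose, and leaving out 1 array left 5 to 7 of the 13. P2ry6, a UDP receptor, rose 1.96-fold (0.97 ± 0.104), and P2rx1, an ATP-gated channel, 1.80-fold (0.85 ± 0.0954). P2ry2, a receptor of ATP and UTP, fell 1.46-fold (-0.55 ± 0.0865). The limma adjusted p was at most 0.000139 in each. P2rx1 lay below the median row in its mean over all arrays, so its fold is read with less certainty.

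Of the CAP domain family, to which Pi16 belongs, 7 genes were listed and not the whole family. Among these 3 rose, beside 12.1% of all genes. Crispld2, a secreted protein of mesenchyme, stood at 6.16, 6.30 and 6.45 in transgenic and at 5.14, 5.31 and 5.60 in wildtype arrays, a 1.95-fold rise (0.97 ± 0.0729). Glipr1 rose by 1.00 ± 0.0773 on the log2 scale. Pi15 was called higher from wildtype levels of 2.58 to 3.23, all in the dimmest 20% of the table's values, and its difference was 1.09 ± 0.117 as deposited but 0.60 with a floor at the 20th percentile, so its size rests on dim values. The limma adjusted p was at most 2.22e-06 in all 3 genes. Their transgenic arrays lay wholly above the wildtype arrays, beside 5.43% of all genes. Clec3a, the paralogue of Clec3b in cartilage, differed by 0.07 ± 0.0935 (limma adjusted p = 0.657).

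**Figure D3:**
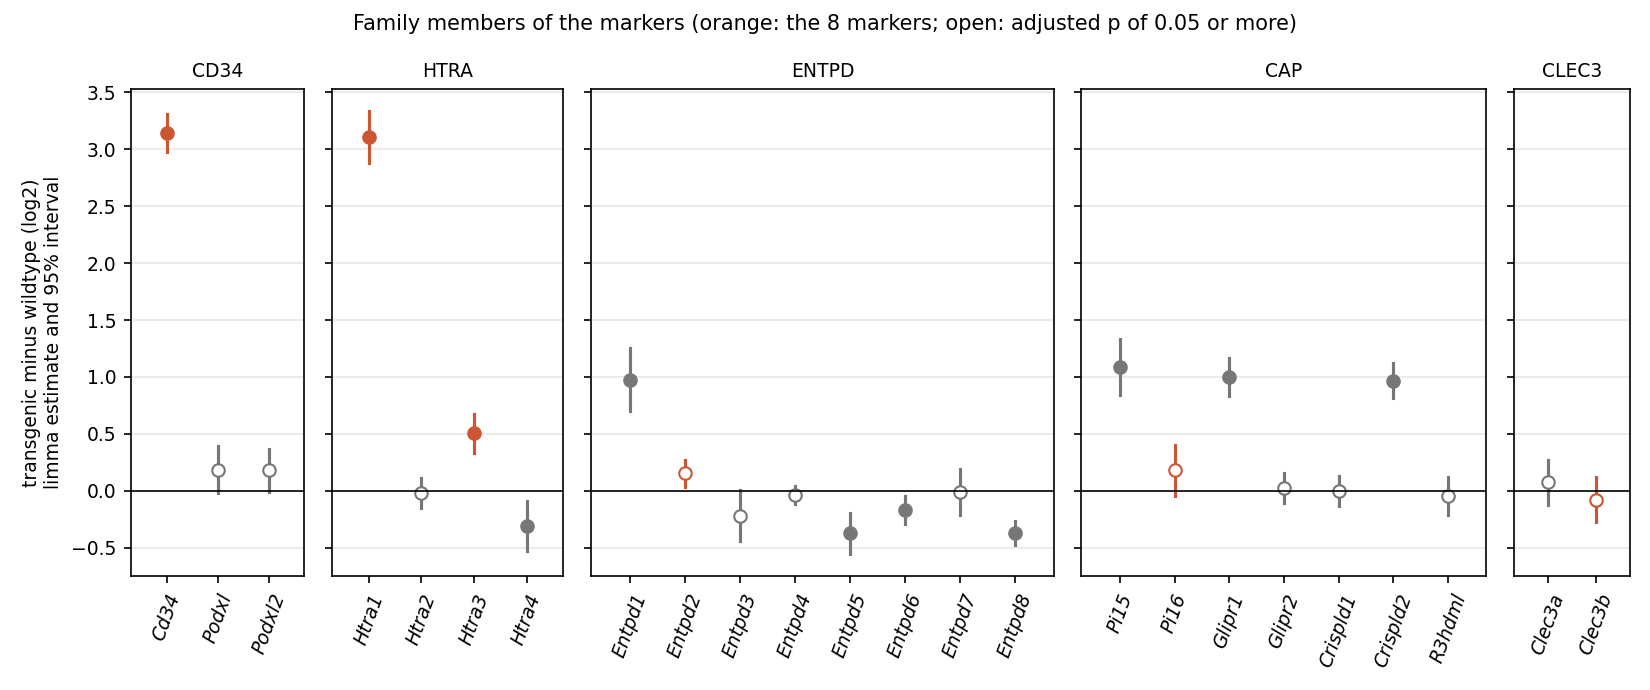
Difference between transgenic and wildtype arrays (log2, vertical axis) with its 95% interval for every measured gene listed for 5 families, the markers in orange, with open circles where the adjusted p was 0.05 or more. In the CD34 panel Podxl (0.19) and Podxl2 (0.18) lie near zero beside Cd34 at 3.14, and in the ENTPD panel Entpd1 (0.98) is the one gene called higher while Entpd2 is at 0.15.

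Because Cd34 and Thy1 also mark other cells, marker lists of those cells were set beside them. Of 18 endothelial genes 7 rose and 5 fell, beside 12.1% and 11.1% of all genes, with a median difference of -0.03. Mean levels over the list ranged from 6.72 to 6.96 in transgenic and from 6.67 to 6.95 in wildtype arrays. Emcn, a capillary sialomucin, rose 2.34-fold (1.23 ± 0.117) and Eng 1.97-fold (0.98 ± 0.058), while Kdr, the main VEGF receptor, fell 2.02-fold (-1.01 ± 0.0976). The pan-endothelial genes Pecam1 and Cdh5 stood at 0.35 ± 0.0929 and -0.06 ± 0.0665 (limma adjusted p = 0.012 and 0.569). The part of endothelium in the Cd34 difference was not tested.

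Of 11 genes of blood progenitors 3 rose and 3 fell, beside 12.1% and 11.1% of all genes, and 1 fell with the replicate block or when 1 of the transgenic arrays 3, 6 and 7 or of the wildtype arrays 3 and 6 was dropped. The progenitor list had levels of 5.15 to 5.40 in transgenic and 5.12 to 5.28 in wildtype arrays. Kit fell 1.47-fold (-0.56 ± 0.102), whereas Cd48, which many leukocytes carry, rose 1.88-fold (0.91 ± 0.108). None of 7 mast cell genes was called by limma, beside 12.1% of all genes called higher and 11.1% lower. None had an unadjusted p under 0.05, and their list levels were 3.39 to 3.61 in transgenic and 3.45 to 3.64 in wildtype arrays. These levels lie far below the median row (5.25), so the lack of calls says little about mast cells. T cell genes rose in 2 of 10 cases, near the background of 12.1% (1 to 3 when each array was left out in turn, with 3 without transgenic array 3), namely Cd3g (0.83 ± 0.0985) and Cd3d (0.37 ± 0.111, a call lost after quantile normalization or centring and without transgenic array 5), and Cd3e differed by 0.08 ± 0.0769. T cell list levels were 4.95 to 5.23 in transgenic and 4.94 to 5.02 in wildtype arrays, and their part in the Thy1 values was not tested. Cd3g and Cd3d lay below the median row in their mean over all arrays, so the limit given for dim rows holds for them too.

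Bile duct, surface and smooth muscle genes were read in the same way. None of 8 bile duct genes was called by limma, beside 12.1% of all genes called higher and 11.1% lower. None had an unadjusted p under 0.05, with Krt19 at 0.10 ± 0.0693. Their list levels were 4.61 to 4.81 in transgenic and 4.67 to 4.80 in wildtype arrays. These lie below the median row (5.25), so the lack of calls says little about bile ducts. Among 10 genes of the mesothelium, the covering of the liver surface, 1 rose, near the background of 12.1% of all genes. It was Wt1 (0.55 ± 0.0966, limma adjusted p = 0.00042), and the defining mesothelial gene Msln differed by -0.10 ± 0.098. Mesothelial list levels, 4.72 to 5.02 in transgenic and 4.70 to 4.93 in wildtype arrays, also lay below the median row. Smooth muscle and myofibroblast genes rose in 5 of 13 cases, beside 12.1% of all genes, and 8 were not called. The list median was 0.09. Tagln led at 1.40 ± 0.114, and Acta2 stood at 0.58 ± 0.133, with groups that overlapped. Among those not called were Myh11 at 0.05 ± 0.0796, Cnn1 at -0.13 ± 0.0817 and Myocd at -0.08 ± 0.0991. List levels were 5.65 to 5.75 in transgenic and 5.25 to 5.49 in wildtype arrays.

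Stellate cell genes moved in both directions. Of 17 genes 9 rose and 4 fell, beside 12.1% and 11.1% of all genes, with a median of 0.49. Tcf21, a transcription factor of stellate cells, rose 6.72-fold (2.75 ± 0.123), Cygb 3.50-fold (1.81 ± 0.106) and Hgf 3.05-fold (1.61 ± 0.115), and Lrat, which makes retinyl esters, 2.30-fold (1.20 ± 0.182). The 4 that fell were Angptl6, an angiopoietin-like secreted factor, at -1.39 ± 0.062, Rgs5, a regulator of G protein signalling in pericytes, at -1.17 ± 0.129, the parathyroid hormone receptor gene Pth1r at -0.78 ± 0.0626, and Ecm1, an extracellular matrix protein, at -0.54 ± 0.0863. In each of these 4 every transgenic array lay below every wildtype array (limma adjusted p at most 0.00017). The share of all genes lying wholly below is not given here, so nothing is read from that count. List levels were 7.19 to 7.37 in transgenic and 6.66 to 6.98 in wildtype arrays. Whether stellate cells, portal fibroblasts or both carried the higher Cd34, Htra1 and Dpt signal was not tested. Of 12 hepatocyte genes 6 fell and 1 rose, beside 11.1% and 12.1% of all genes. The rise was that of Apoa1 (0.07 ± 0.0215, limma adjusted p = 0.0292), a call lost in 11 of 27 alternatives, among them dropping 1 of the transgenic arrays 1, 3 and 4 or of the wildtype arrays 1, 4 and 7, and 3 hepatocyte genes fell after quantile normalization. The list had a median of -0.10 and list levels of 12.51 to 12.60 against 12.64 to 12.69.

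**Figure D4:**
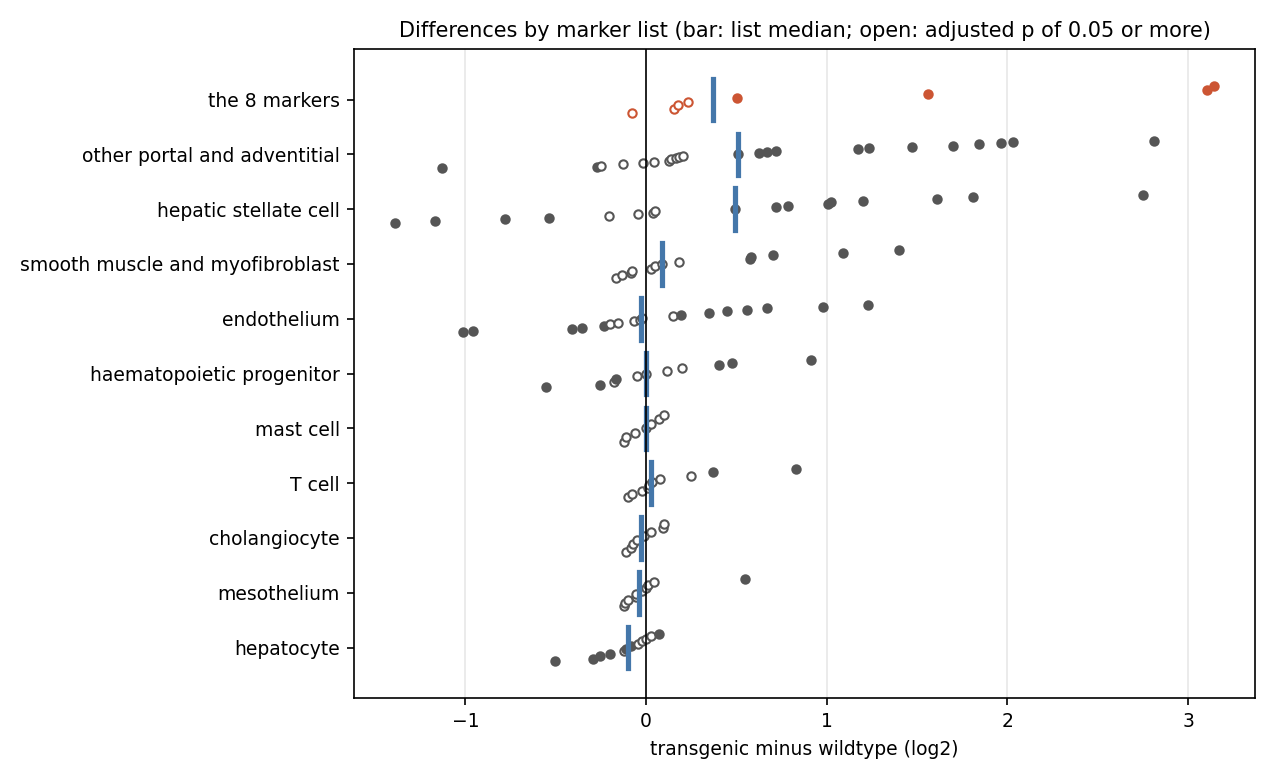
Difference between transgenic and wildtype arrays (log2, horizontal axis) for every measured gene of the 8 markers (orange) and of 10 other lists (grey), 1 line per list, with the list median as a blue bar and open circles where the adjusted p was 0.05 or more. The other portal and adventitial genes and the stellate cell genes have medians of 0.51 and 0.49. The medians of the mast cell, bile duct, blood progenitor, endothelial and T cell lists are -0.001, -0.03, -0.0008, -0.03 and 0.03.

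Within the groups, where genotype does not vary, the markers were compared pair by pair. With 7 and 9 arrays the test finds only very high correlations, so a pair that did not pass may still vary together. Over 28 pairs of the 8 genes in each group, 56 values in all, Pearson's r ranged from -0.77 to 0.90 with a median of -0.07 in the 7 transgenic arrays, and from -0.62 to 0.86 with a median of 0.08 in the 9 wildtype arrays. No pair had an adjusted p under 0.05 (two-sided exact permutation test, Benjamini-Hochberg over the 56 values, smallest 0.103), and 2 transgenic and 4 wildtype pairs had an unadjusted p under 0.05. Cd34 and Htra1 had r = 0.90 and Spearman's rho = 0.86 in the transgenic arrays (exact permutation p = 0.00675 and 0.0238, adjusted 0.137 and 0.357) and r = 0.61 and rho = 0.67 in the wildtype arrays (exact permutation p = 0.0887 and 0.0589, adjusted 0.534 and 0.411). Without the 2 arrays farthest from the median of Cd34, r was 0.76 and 0.51. Cd34 and Htra3 had r = -0.77 and rho = -0.61 in the transgenic arrays (exact permutation p = 0.0419 and 0.167, adjusted 0.391 and 0.549), and r was -0.34 without 2 arrays. The 3 wildtype pairs with the highest r joined Entpd2, Pi16 and Clec3b, at 0.86, 0.82 and 0.78 (exact permutation p = 0.00184, 0.00732 and 0.0108, adjusted 0.103, 0.137 and 0.151). Their rho was 0.83, 0.70 and 0.58 (exact permutation p = 0.00827, 0.0433 and 0.108, adjusted 0.357, 0.411 and 0.432). Wildtype array 9 was the lowest wildtype array for Entpd2, Pi16 and Clec3b, at 6.13, 3.87 and 4.71. It also lay at an end of the second principal component of the arrays. Pi16 lay below the median row in 9 of 9 wildtype arrays and Clec3b in 6 of 9, so their r rests on dim values. Without the 2 arrays farthest from the median of the first gene of the pair, r fell to 0.49, 0.46 and 0.06. Dropping such arrays also narrows the spread of that gene, which by itself can lower r.

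Genes whose levels followed Cd34 most closely within both groups were found by the mean of the r over 7 transgenic and the r over 9 wildtype arrays, among 11556 genes with a mean above the median row. They were Tgfbi (0.89), Dcn (0.85), Zfp639 (0.84), Prelp (0.84) and Fbln5 (0.82). Tgfbi encodes a TGF-beta-induced matrix protein, Dcn and Prelp small leucine-rich proteoglycans and Fbln5 an elastic fibre protein. Of these, Tgfbi (1.52 ± 0.0815), Dcn (1.48 ± 0.12), Prelp (1.63 ± 0.0929) and Fbln5 (2.31 ± 0.124) were called higher in transgenic livers, beside 12.1% of all genes. Zfp639, a zinc finger gene, differed by -0.20 ± 0.0998 and did not pass the test. The filter used the mean over all arrays, which a gene high in transgenic arrays alone can pass, so nothing is read from these calls. Cd34 lay below the median row in 8 of 9 wildtype arrays, so its r there rests on dim values. The r values given are the highest of many correlations over few arrays that share hybridisation and scaling, and serve as a description.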

How the data were processed

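The deposited table holds log2 intensities that the authors made with GCRMA, per the submitters' processing notes; the version, settings and log base are not given in the sources used here, and base 2 was read from the range of 0.71 to 14.7. All 35557 rows were fitted as deposited with limma 3.58.1 in R 4.3.3 (lmFit, eBayes with a trend, two-sided, 7 transgenic against 9 wildtype arrays, 14 residual degrees of freedom, threshold 0.05 after Benjamini-Hochberg adjustment over all rows). The number of arrays sets the precision. Symbols came from the platform annotation (21789 rows with 1 symbol, 1621 with several), and Entrez identifiers of all 8 markers matched RefSeq symbols of GRCm38.p6. RefSeq promoter windows were found for 6 markers, not for Thy1 and Clec3b.

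The markers, gene lists, motifs and tests were chosen with earlier results of these data known. Named genes were the markers, Pdgfc, families, up to 3 called genes of each list by size (otherwise the smallest p), defining markers and the 5 genes most like Cd34; Mfap4, Fbln2, Eln, Gli1, Col15a1, Mfap5, Cd55, Ccl11, Angptl6, Rgs5, Pth1r, Ecm1 and Apoa1 were added after their values were seen. Correlations used exact permutations in Python 3.11.15. Replicate numbers did not pair the arrays. The fit was tested on simulated data. Alternatives were quantile normalization, median centring, filters, a floor at the 20th percentile, other variance models, array weights, averaging all rows of a gene, the replicate block and leaving out arrays.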

Additional observations from a re-analysis of the deposited data

How the results depend on the processing

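The count of 0 markers lower held in all 27 alternatives and that of 4 higher in 23. It was 5, with Entpd2, with the floor, on rows above the median row, and without transgenic array 5 or wildtype array 4, so 4 to 5 when each array was left out in turn. No called difference of a named gene changed sign in any of them. Of the other portal and adventitial genes, 12 to 13 were called higher throughout, while the 2 called lower became 4 after quantile normalization or centring of arrays on their medians (adding Gli1 and Mfap5), 1 with the replicate block, 0 among the 18 with rows above the median row, and 1 to 3 when each array was left out in turn. The count of correlated pairs was also 0 in both groups in the 20 alternatives that change levels or arrays. Leaving out an array of a group, as in 16 of these, weakens the exact test in that group. It leaves the correlations of the other group as they were, so these settings say little about stability. Replicate numbers gave no pairing: deviations of same-numbered arrays correlated at -0.02 to 0.09, 0 of 7 transgenic arrays correlated best with its own number, and the replicate block changed the genes called from 2422 higher and 2209 lower to 2146 and 1673, with 4 markers higher. Over all genes the split was 1860 higher to 3350 lower after centring and 2230 to 2867 after quantile normalization, with the median gene at -0.09 and -0.06 against -0.04 as deposited, so small differences such as those of Thy1, Entpd2 and Pi16 depend on the scaling. Without transgenic array 1 and wildtype array 9 together, the ends of the second principal component, Cd34 stood at 3.19 and Htra1 at 3.18. Signal near background limits what the dim rows of Pi16 and Clec3b can show, and detection calls were not analysed here.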
